A study of Saccharomyces cerevisiae with 14 samples.

Results

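The 10 genes described here encode the enzymes with which budding yeast (Saccharomyces cerevisiae) builds and breaks down glycogen: PGM1, PGM2, UGP1, GLG1, GLG2, GSY1, GSY2, GLC3, GPH1 and GDB1. They were taken by name, as the enzymes that make UDP-glucose, prime, lengthen and branch the polymer, and release glucose from it again. All 10 were found among the 5315 genes named on both array formats of the study, each with 1 probe set on either format, and all 10 lay above the signal filter that left 4287 genes for testing. Between ARV1 mutants and controls the 10 genes had no common direction: they were higher than the control in 1 isolate (median log2 ratio 1.13), far lower in a sample of another isolate (-2.06), and close to the control in a second sample of that other isolate (0.44). No member passed the test over all mutants.

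Glycogen is a branched polymer of glucose that yeast lays down as a reserve. Phosphoglucomutase and UDP-glucose pyrophosphorylase turn glucose-6-phosphate into UDP-glucose, glycogenin starts a chain on itself, glycogen synthase lengthens it, and the branching enzyme adds side chains, while phosphorylase and the debranching enzyme take the polymer apart. In yeast many of these genes, though not all, are known to be expressed weakly during fast growth on glucose and more strongly as glucose runs short or under stress. This runs through the stress transcription factors Msn2 and Msn4 and under restraint by protein kinase A.

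Transcripts were measured on Affymetrix arrays in 5 RNA samples of W303 background and mating type a, of which 3 carry an ARV1 mutation and 2 are controls. The ARV1 product is an endoplasmic reticulum membrane protein linked to lipid transport, and the comparison asked which transcripts differ when it is mutated. Every culture was harvested in mid-logarithmic growth in YEPD, a rich glucose medium, and poly(A)+ RNA was labelled. The older Ye6100 format, with 4 chips per sample, held a control of strain SCY328 (control 1/2), mutant 1 of isolate SCY820 and mutant 2 of isolate SCY840. The later single-chip S98 format held a control of strain SCY2004 (control 3) and mutant 3, again isolate SCY840. Each mutant was compared with the control of its own format, so mutants 1 and 2 share a control. The mutant allele, and whether samples came from separate cultures, are not stated in the labels. The p-values here thus reflect only the spread between these samples, taken in part from other genes.

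The deposited 2% trimmed mean signal was close to 250 in the Ye6100 samples, and on S98 it was 500.3 in control 3 and 250.1 in mutant 3, which were brought to a common value. ARV1 itself (YLR242C) had a signal of 33.4 for control 1/2, 1.0 for mutant 1 and 2.2 for mutant 2, and a scaled signal of 51.8 for control 3 and 6.79 for mutant 3. Probes at the 5' and 3' ends of ACT1 gave a signal ratio of 0.781, 0.764 and 0.351 on Ye6100 (control 1/2, mutant 1, mutant 2), and of 1.15 and 1.17 on S98 (control 3, mutant 3). For SPT15 this ratio was 0.563, 0.603 and 0.370 on Ye6100. For SRB4 it was 0.691, 0.399 and 0.201 on Ye6100, from low 5' signals of 24.6, 18.8 and 10.15, so mutant 1 was also below the control there. Mutant 2 was the lowest sample of that format for each of these genes, and the part of this ratio in the glycogen gene values was not tested. On S98 the SPT15 ratio was 0.518 in control 3 and 0.296 in mutant 3, and the SRB4 ratio 0.403 and 0.274. The a-cell genes were detected in every sample, with summed signals of 5806, 3520 and 3463 on Ye6100 and 6370 and 4666 on S98. The 4 alpha-cell genes summed to between 36.8 and 47.0 on Ye6100 and to 168 and 172 on S98, and of these and the 5 meiotic genes 0 passed the filter.

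**Figure D1:**
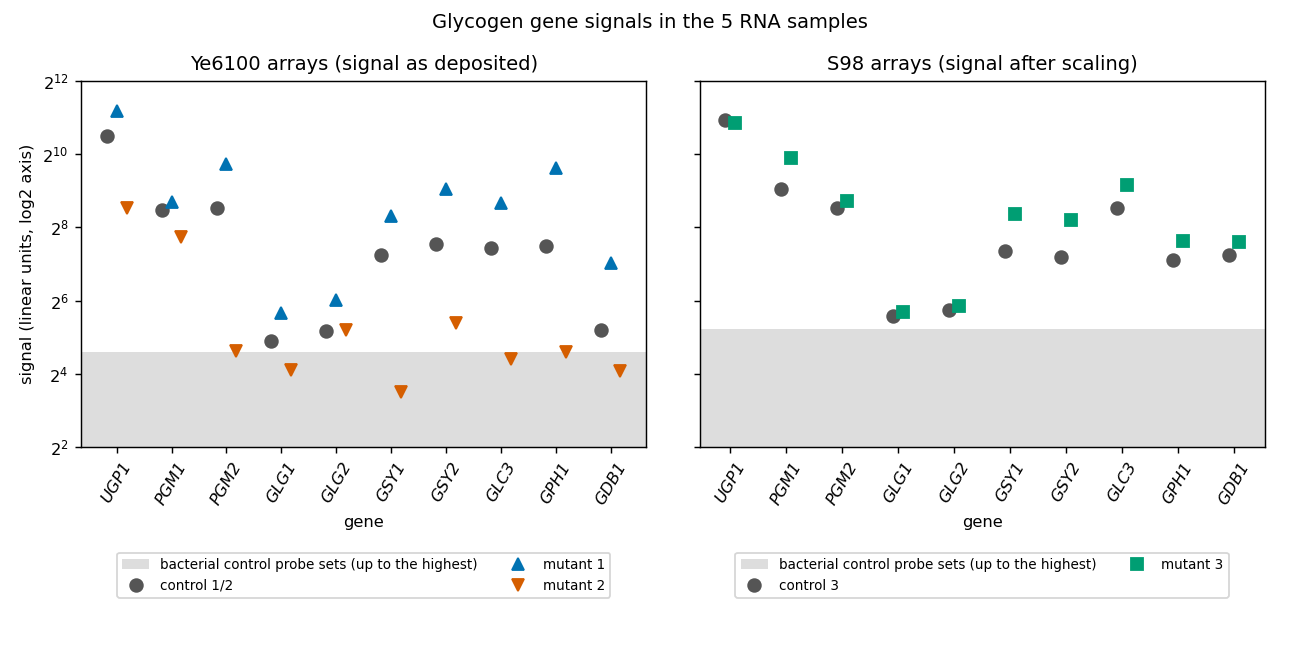
Signal of each glycogen gene on a log2 axis in the 3 Ye6100 samples (left, as deposited) and the 2 S98 samples (right, after scaling). Each point is 1 RNA sample, and the grey band reaches up to the highest bacterial control probe set of that format, 24.2 on Ye6100 and 37.5 on S98. Mutant 2 lies below control 1/2 for 9 of 10 genes and 5 of its points fall within the band.

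UDP-glucose supply was the first step considered. PGM2 (YMR105C), the major phosphoglucomutase, had signals of 372.8 for control 1/2, 855.3 for mutant 1 and 24.8 for mutant 2, and scaled signals of 369.4 for control 3 and 423.3 for mutant 3. It was thus 2.29-fold higher than the control in mutant 1, 15.0-fold lower in mutant 2, and near the control in mutant 3. The mutant 2 signal of PGM2 lay close to 24.2, the highest bacterial control signal on Ye6100, so the size of that fold is uncertain. PGM1 (YKL127W), the minor isoenzyme, had 355.7, 413.2 and 213.4 on Ye6100 and 534.0 and 953.9 on S98. Its log2 ratios were 0.22, -0.74 and 0.84, all under 2-fold, and mutant 3 was the sample farthest above its control. UGP1 (YKL035W), the UDP-glucose pyrophosphorylase that also feeds cell wall glucan and trehalose, had 1433.8, 2311.3 and 372.2 on Ye6100 and 1948.3 and 1852.0 on S98. That placed it 3.85-fold lower in mutant 2, while mutant 3 lay next to its control with a log2 ratio of -0.07.

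The glycogenins, which prime a new chain by adding glucose to themselves, varied least. GLG1 (YKR058W) had signals of 29.8, 50.2 and 17.2 for control 1/2, mutant 1 and mutant 2 on Ye6100, and 48.2 and 51.5 for control 3 and mutant 3. GLG2 (YJL137C) had 35.7, 64.6 and 36.4 on Ye6100 and 53.9 and 58.0 on S98. All ratios of both genes stayed under 2-fold, and GLG2 was the only member whose signal in mutant 2 was not below the control. The glycogenin signals were low, near the filter of 25.4 on Ye6100, and the highest bacterial control probe set in a Ye6100 sample reached 24.2.

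Glycogen synthase is encoded by GSY1 and GSY2, of which GSY2 is known as the major form. GSY2 (YLR258W) had signals of 188.5 for control 1/2, 525.6 for mutant 1 and 41.7 for mutant 2, and scaled signals of 145.3 for control 3 and 297.1 for mutant 3. GSY1 (YFR015C) had 151.8, 316.3 and 11.4 on Ye6100 and 163.8 and 327.5 on S98. Both synthase genes were above the control in mutants 1 and 3 and below it in mutant 2, by 4.52-fold for GSY2 and 13.3-fold for GSY1. The GSY1 signal of 11.4 in mutant 2 was the only member signal under the highest bacterial control probe set of its own sample, 12.9. The size of that fold thus rests on a signal no higher than these controls gave. Other low signals of mutant 2 limit their folds too. With 16 added to each signal before log2, the mutant 2 log2 ratio of PGM2 was -3.25, against -3.91. Those of GSY1, GLC3, GPH1 and GDB1 were then -2.61, -2.34, -2.28 and -0.68, against -3.74, -3.02, -2.90 and -1.12. In mutant 3 the log2 ratio was 1.03 for GSY2 and 1.00 for GSY1, just past 2-fold and just short of it.

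GLC3 (YEL011W), the branching enzyme gene, had signals of 172.8 for control 1/2, 408.7 for mutant 1 and 21.3 for mutant 2, and scaled signals of 371.4 for control 3 and 567.1 for mutant 3. It was 2.37-fold higher than the control in mutant 1 and 8.11-fold lower in mutant 2, with a log2 ratio of 0.61 in mutant 3.

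Of the enzymes of breakdown, glycogen phosphorylase GPH1 (YPR160W) releases glucose-1-phosphate from chain ends. Its signals were 179.4 for control 1/2, 783.1 for mutant 1 and 24.1 for mutant 2 on Ye6100, and 137.8 and 197.9 on S98. GPH1 was the member highest above the control in mutant 1, at 4.37-fold, and 98.2% of tested genes had a lower ratio there. In mutant 2 it was 7.44-fold below the same control. GDB1 (YPR184W), the debranching enzyme gene, had 36.4, 131.6 and 16.8 on Ye6100 and 151.5 and 195.0 on S98, which is 3.62-fold higher in mutant 1 and 2.17-fold lower in mutant 2. Genes of synthesis (GSY1, GSY2 and GLC3) and of breakdown (GPH1 and GDB1) were thus all above the control in mutant 1 and all below it in mutant 2.

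In each mutant the glycogen genes were set beside all genes tested. In mutant 1 all 10 log2 ratios were above 0, from 0.22 to 2.13, except that PGM1 was at -0.09 with median centring and -0.03 with quantile normalization. At least 2-fold higher were 6 of 10 members (GPH1, GDB1, GSY2, GLC3, PGM2 and GSY1), against 15.3% of all genes, and 0 were at least 2-fold lower, against 4.08%. In mutant 2, 9 of 10 ratios were below 0, also with median centring and with quantile normalization. There 7 members were at least 2-fold lower with the scaling used (PGM2, GSY1, GLC3, GPH1, GSY2, UGP1 and GDB1), against 16.8% of genes. None was at least 2-fold higher there, against 12.5%. In mutant 3, 1 member (GSY2) was at least 2-fold higher, against 9.98% of genes, and 0 were lower, against 1.49%. These comparisons have 1 sample on either side and carry no test.

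**Figure D2:**
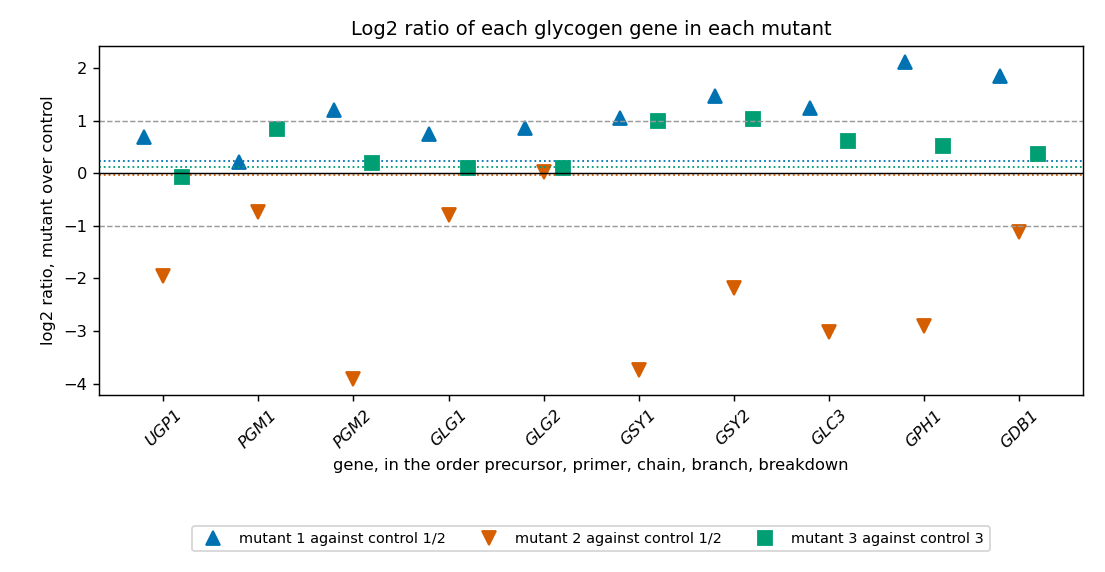
Log2 ratio of each glycogen gene in mutants 1, 2 and 3 over the control of the same array format, 1 sample against 1. Dashed lines mark 2-fold and dotted lines the median of all 4287 tested genes in each mutant (0.24, -0.04 and 0.13). Mutant 1 lies above 0 for all 10 genes, mutant 2 below 0 for all but GLG2, and mutant 3 between -0.07 and 1.03.

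The members had a median log2 ratio of 1.13 in mutant 1, beside 0.24 for all genes tested. In mutant 2 it was -2.06, beside -0.04, and in mutant 3 it was 0.44, beside 0.13. Relative to the median gene of each comparison the members stood at 0.89, -2.02 and 0.31, a difference that does not depend on the scale factor of an array. The sign in mutant 3 does depend on it. With the deposited S98 values as they stand the median of the members was -0.56 and 9 of 10 were below 0, and with median centring 6 of 10 were above 0. In bulk RNA fewer cells that express a gene and less transcript per cell cannot be told apart.

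Technical spread could be read from 9 control probe sets that were present on each of the 4 chips of a Ye6100 sample. Their log2 signal had a pooled SD of 0.24 over chips, so that 2 SD of a ratio between 2 samples corresponds to 1.60-fold. Single probe sets had an SD from 0.08 to 0.65. PGM1 in mutant 1 and GLG2 in mutant 2 differed from the control by less than 1.60-fold. This spread covers chips hybridised with 1 RNA sample and not the spread between cultures.

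The test over all 5 samples found no glycogen gene changed. With array format as a block, limma (Benjamini-Hochberg over 4287 genes) called 0 members, beside 0% of all genes, and the adjusted p of the members lay between 0.948 and 0.999. An unadjusted p under 0.05 was found for 281 genes and 0 members. The fitted log2 change was 0.24 ± 1.08 (SE, 3 mutants and 2 controls) for GSY2, 0.004 ± 1.41 for GPH1 and -0.69 ± 1.46 for PGM2. Fitted changes of the 10 genes had a median of 0.02, beside 0.096 over all genes, and their SE ran from 0.45 to 1.46, beside a median of 0.42 over all genes.

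Without mutant 2 the same limma fit called 5 members higher, against 13.3% of genes called higher, and the SE of the members then ran from 0.27 to 0.35. GSY2 rose by 1.26 ± 0.28 on the log2 scale (adjusted p = 0.00710), GPH1 by 1.32 ± 0.34 (0.0162) and GSY1 by 1.03 ± 0.27 (0.0177). GDB1 rose by 1.11 ± 0.33 (0.0331) and GLC3 by 0.93 ± 0.29 (0.0389). These are the chain, branch and breakdown enzymes. The limma fit without mutant 2 left PGM2 at 0.70 ± 0.31 (adjusted p = 0.135), PGM1 at 0.53 (0.232), and GLG2, GLG1 and UGP1 at 0.48, 0.42 and 0.31, with adjusted p from 0.352 to 0.511. This fit compares mutants 1 and 3 with 1 control each and has 1 residual degree of freedom of 15.4 in total. Mutant 2 was left out after its values had been seen. It was below the control for 9 of 10 members, so leaving it out raises their fitted change and these calls are no test. The mutant 3 ratios also depend on scaling. With the deposited S98 values they were -0.0006 for GSY1, 0.03 for GSY2, -0.48 for GPH1, -0.39 for GLC3 and -0.64 for GDB1. Without mutant 1 the median fitted change of the members was -0.79.

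Mutants 1 and 2 could be compared on Ye6100 without any control. Every member had a lower signal in mutant 2 (SCY840) than in mutant 1 (SCY820), and 8 of 10 were at least 2-fold lower, against 23.8% of all genes. None was at least 2-fold higher, against 8% of all genes. The difference reached 34.5-fold for PGM2, 32.5-fold for GPH1, 27.7-fold for GSY1, 19.2-fold for GLC3 and 12.6-fold for GSY2, and only 0.233% of tested genes had a lower value than PGM2. For GDB1, UGP1 and GLG1 it was 7.83-fold, 6.21-fold and 2.92-fold. In mutant 2 PGM2, GPH1, GSY1 and GLC3 had signals of only 24.8, 24.1, 11.4 and 21.3, so the size of their folds is uncertain. The highest bacterial control signal on Ye6100 was 24.2. With 16 added to each signal before log2, their log2 differences were -4.42, -4.32, -3.60 and -3.51, against -5.11, -5.02, -4.79 and -4.26. The median log2 difference was -3.31 for the members and -0.25 for all genes.

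An isolate term, added to the fit after the data had been seen, took in mutant 3 as well. With it limma called 6 members (GSY1, GSY2, GPH1, GLC3, GDB1 and PGM2) lower in SCY840 than in SCY820, of 52 genes called lower (1.21%). Among the other lists it called 3 of 14 general stress genes, 1 of 10 glycogen regulators, 1 of 5 glucose phosphorylation genes and 1 of 6 trehalose genes lower. These calls are no test of the isolates. SCY820 is 1 sample, the fit has 1 residual degree of freedom, and most of its 52.3 total degrees of freedom come from the spread of other genes. The calls fell to 0 without the filter on low signals and to 2 without the mean-variance trend.

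Of the SCY840 samples only mutant 2 was low for these 6 genes. The log2 ratio of GSY1 was -3.74 in mutant 2 and 1.00 in mutant 3, which are labelled as 1 isolate, and 1.06 in mutant 1. For GPH1 these values were -2.90, 0.52 and 2.13, and for PGM2 -3.91, 0.20 and 1.20. Mutant 2 minus mutant 3 gave -4.73 for GSY1 and -4.11 for PGM2, where the fitted isolate difference was -3.61 and -4.08. Mutant 3 was above its control for all 6 genes with the scaling used. With median centring PGM2 was below it (-0.08), and with the deposited S98 values as they stand only GSY2 was above it (0.03). Mutants 2 and 3 also differ in array format and control strain, and these cannot be told apart from a difference between samples of 1 isolate.

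**Figure D3:**
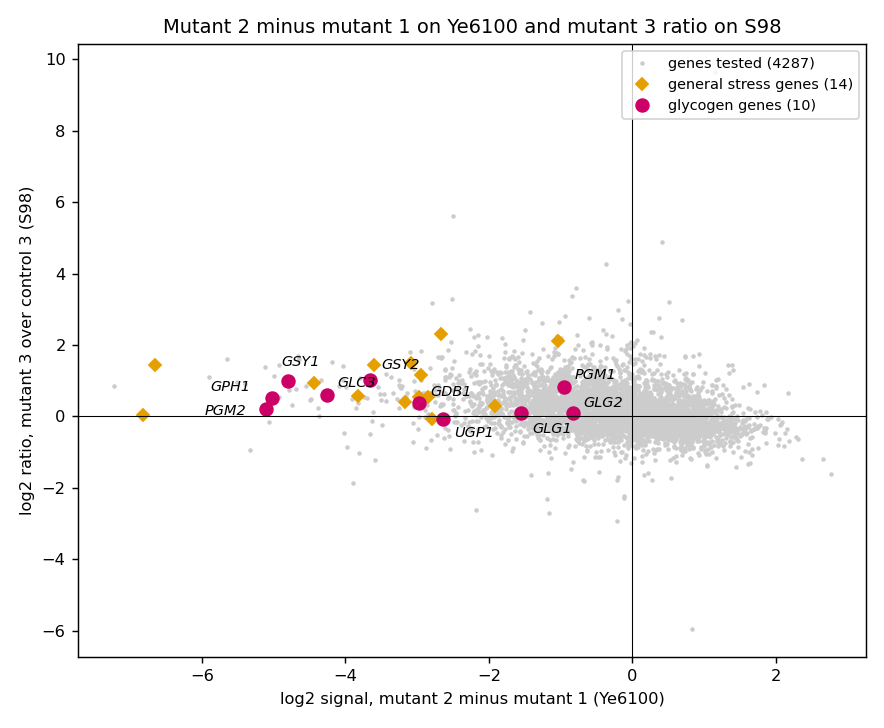
Log2 signal of mutant 2 minus mutant 1 on Ye6100 (horizontal axis) against the log2 ratio of mutant 3 over control 3 on S98 (vertical axis), 1 point per gene, with 4287 tested genes in grey. The 10 glycogen genes (round points) lie between -5.11 and -0.83 horizontally and between -0.07 and 1.03 vertically, and the 14 general stress genes tested (diamonds) also lie left of 0.

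Members differed among themselves in the spread of their ratios. The range of the 3 log2 ratios was 5.11 for PGM2, 5.02 for GPH1 and 4.79 for GSY1, and 0.83 for GLG2, 1.55 for GLG1 and 1.57 for PGM1. By the Euclidean distance between their 3 log2 ratios, the closest members were the glycogenin genes GLG1 and GLG2 (0.83), GSY1 with PGM2 (0.83), GSY1 with GLC3 (0.83) and GPH1 with GLC3 (0.90). The synthase pair GSY1 and GSY2 stood 1.61 apart. The phosphoglucomutase pair PGM1 and PGM2 was 3.38 apart, near the widest distance of 3.95 between GLG2 and PGM2. Distances of this kind describe 3 ratios, of which those of mutants 1 and 2 share a control.

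The tested genes outside the list whose 3 ratios lay nearest the median of the members were MSN4, GAD1, SOL1, SYP1 and HSP30. MSN4, which encodes a stress transcription factor, had log2 ratios of 1.08 (mutant 1), -1.95 (mutant 2) and 0.73 (mutant 3), at a distance of 0.31. GAD1, for glutamate decarboxylase, had 0.89, -2.27 and 0.40 (0.32), and SOL1 had 0.83, -2.07 and 0.31 (0.33). SYP1 had 0.89, -2.25 and 0.67 (0.38), and HSP30, a plasma membrane heat shock protein gene, 1.51, -2.003 and 0.47 (0.38). UGP1 and GSY2, the members closest to that median, were 0.69 and 0.70 from it. The 5 genes were picked by this distance from all tested genes, so their nearness follows from the selection.

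Among genes that control the enzymes, 10 of 13 listed were tested and limma called 0 over all mutants, with 1 (SGA1) at an unadjusted p under 0.05. GAC1 directs the phosphatase Glc7 to glycogen synthase, which activates the enzyme. Its signals were 40.7, 92.9 and 5.7 on Ye6100 and 21.8 and 44.6 on S98, so it was above the control in mutants 1 and 3 and below it in mutant 2. The 21.8 in control 3 and the 5.7 in mutant 2 lay under the highest bacterial control probe sets of those samples (37.5 and 12.9), so no fold is given. IGD1, an inhibitor of the debranching enzyme Gdb1, had 105.9, 470.5 and 18.7 on Ye6100 and 44.8 and 137.8 on S98, again high in mutants 1 and 3 and low in mutant 2. GLC8, a regulatory partner of Glc7, had log2 ratios of 0.67, -1.51 and 0.53, while GLC7 itself had 0.53, 0.00 and 0.15. GAC1, GLC8 and GLC7 were chosen after their values were seen.

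The other tested regulators were not 2-fold lower in mutant 2. Of these, SGA1, PCL8 and PCL10 were above the control there, while PCL6, PCL7 and PHO85 had log2 ratios of -0.39, -0.17 and -0.12. SGA1, a glucoamylase known for breaking down glycogen during sporulation, had signals of 12.3, 48.5 and 37.7 on Ye6100 and 346.8 and 1720.8 on S98, higher than the control in all 3 mutants. Its fitted log2 change of 2.02 ± 0.35 was the largest of the list but did not pass (limma adjusted p = 0.372), and the Ye6100 control signal lay under the filter, as did that of PCL8 (17.7). PCL8 and PCL10 encode cyclins that steer the kinase Pho85 to glycogen synthase, which inactivates it. PCL8 had log2 ratios of 1.42, 0.78 and 0.86 and PCL10 0.69, 0.64 and 0.24, without passing the test (limma adjusted p of 0.741 and 0.875). Over the 10 tested regulators the median log2 ratio was 0.68, -0.14 and 0.60 in mutants 1, 2 and 3. At least 2-fold higher were 4, 1 and 3 of them, against 15.3%, 12.5% and 9.98% of all genes, and at least 2-fold lower were 0, 3 and 0, against 4.08%, 16.8% and 1.49%.

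Genes that supply glucose-6-phosphate, and those of trehalose, the other storage carbohydrate, were low in mutant 2 in part. Of 5 glucose phosphorylation genes, 2 were at least 2-fold higher in mutant 1, against 15.3% of all genes. At least 2-fold lower in mutant 2 were 3 of them, against 16.8%. Their medians were 0.70, -1.08 and 0.55 over the 3 mutants. HXK1, a hexokinase gene, had log2 ratios of 0.70, -3.85 and 0.86, GLK1, for glucokinase, 1.05, -0.74 and 0.55, and HXK2, the main hexokinase on glucose, -0.08, -1.08 and 0.15. PGI1, which turns glucose-6-phosphate towards glycolysis, had 0.43, -0.82 and -0.29. Of 6 tested trehalose genes, 4 were at least 2-fold higher in mutant 1 (15.3% of all genes). In mutant 2, 3 were at least 2-fold lower (16.8%) and 1 at least 2-fold higher (12.5%). The synthesis genes TPS1 and TPS2 had 1.61, -1.10 and 0.60, and 0.75, -2.26 and 0.34. The trehalase gene NTH1 was above the control in each mutant (1.74, 1.07 and 1.03) and NTH2 had 1.59, 0.02 and -0.01. Over all mutants limma called 0 genes in either list, and an unadjusted p under 0.05 was found for NTH1 alone.

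UDP-glucose is also spent on the cell wall and on glycosylation. GSC2, a glucan synthase subunit gene, had signals of 82.1, 896.0 and 518.0 on Ye6100 and 135.3 and 1645.1 on S98, above the control in each mutant, mutant 2 included. FKS1, for the other such subunit, had log2 ratios of 0.76, 0.00 and 0.39. ALG5, whose enzyme makes dolichol phosphate glucose, had -0.64, 1.07 and 0.12, and PGM3, a further phosphoglucomutase family gene, 0.37, -0.90 and 0.37. Of 8 genes on this list 4 were tested, and limma called 0 over all mutants, with 1 (GSC2) at an unadjusted p under 0.05.

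**Figure D4:**
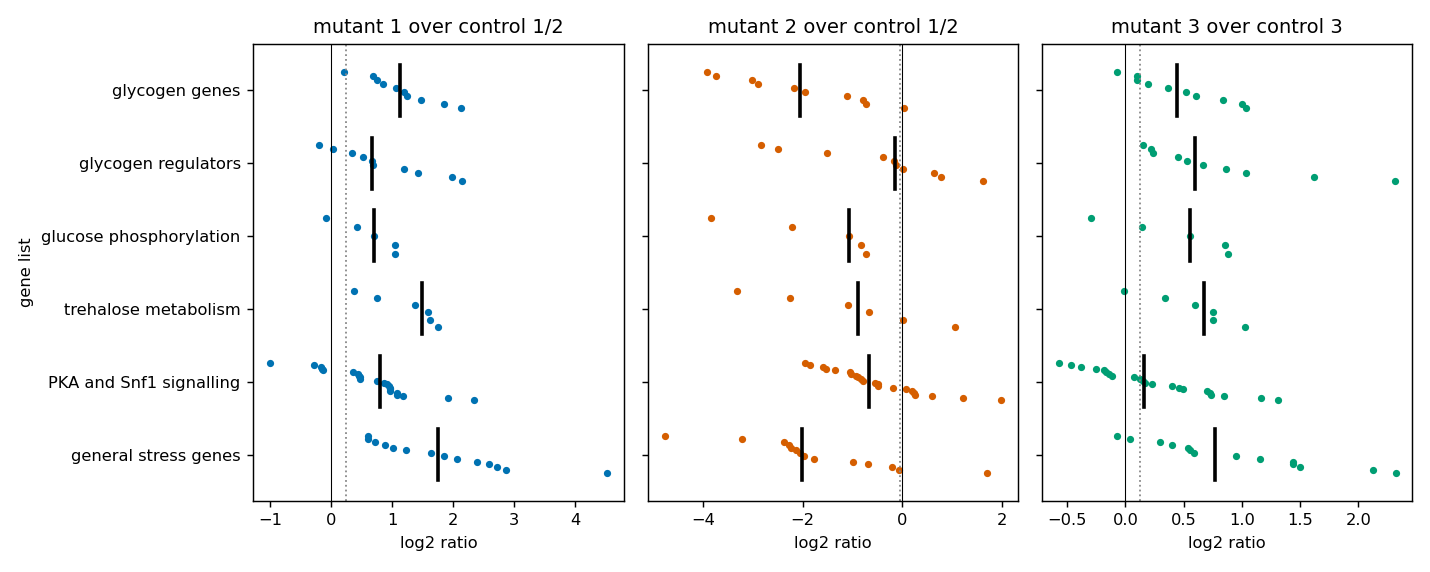
Log2 ratio of every tested gene (points) and the median (bar) of each gene list in mutants 1, 2 and 3 over the control of the same format, with the median of all tested genes as a dotted line. The axes differ in range. The glycogen genes and the 14 general stress genes have medians of -2.06 and -2.01 in mutant 2, and the glycogen regulators -0.14.

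Of the genes of protein kinase A and Snf1 signalling, which set glycogen levels in yeast, 22 of 23 were tested and limma called 0 over all mutants, with 2 (PDE1 and RIM15) at an unadjusted p under 0.05. Their median log2 ratio was 0.81, -0.67 and 0.16 in mutants 1, 2 and 3. At least 2-fold higher were 5, 2 and 2 of them, against 15.3%, 12.5% and 9.98% of all genes. At least 2-fold lower were 1, 7 and 0, against 4.08%, 16.8% and 1.49%. RIM15, a kinase gene of entry into stationary phase, had 2.34, 1.99 and 0.70, and PDE1, for a cyclic AMP phosphodiesterase, 1.92, 0.60 and 1.31. TPK3, a catalytic subunit of protein kinase A, had -0.17, -1.35 and -0.38, and SIP2, a Snf1 complex subunit, 1.08, -0.88 and 1.17. MSN2, the partner of MSN4, had -0.15, -1.05 and -0.14 and was chosen after its values were seen.

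General stress genes, which share the Msn2 and Msn4 pathway, were set beside the glycogen genes. Over all mutants limma called 0 of them, with 1 (TKL2) at an unadjusted p under 0.05. Of 14 tested, 10 were at least 2-fold higher than the control in mutant 1 (15.3% of all genes), 9 at least 2-fold lower in mutant 2 (16.8%) and 6 at least 2-fold higher in mutant 3 (9.98%). All 14 were at least 2-fold lower in mutant 2 than in mutant 1, against 23.8% of all genes. Their median log2 ratio was 1.75, -2.01 and 0.77. The summed signal of the 15 such genes found on both formats was 7916 for control 1/2, 20309 for mutant 1 and 2663 for mutant 2 on Ye6100, and 9167 and 15644 on S98, with none listed at 0. HSP12, a membrane-stabilising stress protein gene, had 487.6, 3564.9 and 421.1 on Ye6100 and 882.1 and 2489.3 on S98. TKL2, a transketolase gene, and XBP1, for a stress-induced repressor, had log2 ratios of 2.73, 1.70 and 2.13 and of 2.59, -0.07 and 2.32. The Ye6100 control signals of TKL2 (18.6) and XBP1 (19.6) lay under the highest bacterial control probe set of that sample, 24.2, as did the S98 control signal of XBP1 (11.2, under 37.5). SSA3, a heat shock protein gene, had signals of 10.5, 241.5 and 1.4 on Ye6100, of which only that of mutant 1 was above the bacterial controls of its sample. On S98 it had 26.2 and 70.9, and the 26.2 of control 3 was again under the highest bacterial control probe set, 37.5. The part of general stress expression in the glycogen gene values was not tested. Glucose-repressed genes, which mark growth past glucose use, summed to 330, 362 and 240 over 9 genes on Ye6100 and to 632 and 1098 on S98, with none listed at 0. Of their 5 tested members 0 were at least 2-fold higher and 0 lower in mutant 1 (15.3% and 4.08% of all genes). At least 2-fold lower in mutant 2 were 2 (16.8%). At least 2-fold higher in mutant 3 was 1 (9.98%), ICL1, for isocitrate lyase, with a log2 ratio of 1.27. Their median log2 ratio was 0.44, -0.30 and 0.53, and their part in the glycogen gene values was not tested.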

How the data were processed

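Each deposited value is an intensity on a linear scale, with 1 value per probe set. Per the submitters' processing notes MAS5 produced it. No source used here gives the MAS5 settings or a genome build, and detection calls were not used. Samples were grouped by the genotype and strain in the labels, and a Ye6100 sample, spread over 4 chips, was 1 sample. Ye6100 signals were used as deposited. On S98 control 3 was multiplied by 0.707 and mutant 3 by 1.41, which gives both the same 2% trimmed mean. Each table had a floor at its 5th percentile (2.40 and 1.98), to which lower signals were raised before log2 was taken. Genes were matched by locus tag on Ye6100. On S98 they were matched by the Entrez gene identifier of the platform annotation, or by its gene symbol where no identifier matched. A gene took the value of its brightest probe set. It was tested where the mean signal of that probe set passed the 25th percentile in both tables (25.4 and 28.1).

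The test was limma 3.58.1 in R 4.3.3 (lmFit, eBayes with a trend) on genotype with array format as a block, over 4287 genes, at a Benjamini-Hochberg adjusted p of 0.05 and with 2 residual degrees of freedom. This block equals a block on the replicate numbers in the labels, since each mutant shares its number with the control of its own format. Contrasts of single samples have no test. The scripts were tested on simulated data. The number of arrays limits the precision. Figures used matplotlib 3.10.9 in Python 3.11.15.

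The members and gene lists were chosen with earlier results of these data known. The rule for named genes takes all 10 members, up to 4 genes of each list with the largest fitted change, the 5 genes nearest the members in their 3 ratios, and ARV1. Alternative settings changed how arrays were scaled, the treatment of low signals, the choice of probe set, the terms and trend of the fit, the thresholds and the samples included, and the isolate term was added after seeing the data. No sequences are given, since none came with the series, and no coordinates, since no build is named.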

Additional observations from a re-analysis of the deposited data

Results flagged for a closer look

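A fit with an isolate term set SCY840 (mutants 2 and 3) against SCY820 (mutant 1) and gave limma calls for 6 genes. The fitted log2 difference was -3.61 for GSY1, -2.85 for GSY2, -4.17 for GPH1, -3.35 for GLC3, -2.60 for GDB1 and -4.08 for PGM2. These values do not show a difference between isolates, because SCY820 is 1 sample and the SCY840 samples lay apart themselves: mutant 2 minus mutant 3 was -4.73, -3.21, -3.42, -3.63, -1.48 and -4.11 for the same genes. All 6 were below the control in mutant 2. In mutant 3 all 6 were above it with the scaling used, but PGM2 was at -0.08 with median centring, and only GSY2 was above it with the deposited values as they stand.

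UGP1 had a log2 ratio of 0.69 in mutant 1 (SCY820), and of -1.95 in mutant 2 and -0.07 in mutant 3 (both SCY840), so the samples of the isolates lay on opposite sides of 0. This difference in sign was not tested by itself, and the ratio of mutant 3 was 0.045 with quantile normalization.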

How the results depend on the processing

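The format block is the pairing by replicate number: with no replicate block limma again called 0 members, and the fitted log2 change was -0.019 for GPH1 and -0.097 for GLG1, where the fit with the block gave 0.004 and 0.03. Members at least 2-fold higher in mutant 1 numbered 3 with median centring and 2 at 3-fold, against 6. In mutant 3 they numbered 0 with median centring, quantile normalization, deposited values as they stand, log2(signal + 16) or 3-fold, and 4 at 1.5-fold, against 1. With deposited values 1 member was lower in mutant 3 (UGP1) and the median there was -0.56. With the filter at the table median, which drops GDB1, GLG1 and GLG2, the median was -2.90 in mutant 2 and -4.26 for mutant 2 minus mutant 1. Isolate calls numbered 0 without the filter and 2 without a trend, against 6. Fitted changes that turned were -0.18 for GPH1 and -0.15 for GLG1 with median centring, and -0.089 and -0.052 with quantile normalization. With deposited values GSY2 had -0.19, GPH1 -0.43, GDB1 -0.061, GLG1 -0.40, GLG2 -0.13 and PGM1 -0.22. None of these fitted changes passed the test in either fit, and the cause was not tested.

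Leaving out each sample in turn gave 0 to 5 members called and a median fitted change from -0.79 to 0.81, with both upper values reached without mutant 2. The fitted change ran from -1.37 to 1.03 for GSY1, -0.57 to 1.26 for GSY2, -1.19 to 1.32 for GPH1, -1.20 to 0.93 for GLC3, -0.38 to 1.11 for GDB1, -0.35 to 0.42 for GLG1, -0.26 to 0.53 for PGM1, -1.86 to 0.70 for PGM2 and -1.01 to 0.31 for UGP1. Over all genes limma called 669 without mutant 2, 30 without mutant 1, 7 with deposited values and 1 with quantile normalization, against 0. Without control 1/2 the S98 samples alone allow no test. The 22 member ratios past 2-fold had 172 values under alternatives of scaling, floor, filter and probe set. Of these values 158 stayed past 2-fold, 14 did not and 0 changed sign. The alternatives of floor, filter and probe set left every such ratio as it was. Deposited values could change only the S98 ratio among them, that of GSY2. Many of the 158 values thus could not move, and their number overstates how far the ratios were tested. All 14 came from median centring, quantile normalization, 16 added to each signal, or deposited values for GSY2. Low signals limit GLG1, GLG2, GDB1 and all low values of mutant 2.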
